A study of Mus musculus with 39 samples.

Results

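The 10 apolipoprotein genes Apoa1, Apoa2, Apoa4, Apoa5, Apob, Apoc1, Apoc2, Apoc3, Apoe and Apom were followed through kidney, liver, lung and skin of young and aged mice. They were taken by symbol as named members of the family, with earlier results of these data known, and all 10 were present among the 24537 genes counted in kidney, liver and lung and among the 52508 symbols counted in skin. The study examined aged male C57BL/6 mice that lack perforin (Prf1-/-), the pore-forming protein of cytotoxic lymphocytes, and their response to ABT-737, an inhibitor of anti-apoptotic BCL-2 family proteins used to eliminate senescent cells. RNA of whole tissue was sequenced from its 3′ ends with a bulk version of MARS-seq, giving 39 libraries. Every group carried the Prf1-/- genotype in all cells, the young one included, so each comparison is among perforin-deficient mice. Young mice were 3 months old and untreated. Old mice were 20 months old and had received either the DMSO-based vehicle or ABT-737 at 25 mg/kg by intraperitoneal injection, on 2 consecutive days of each month for 2 months from 18 months of age. Kidney, liver and lung had 4 young, 3 vehicle and 3 ABT-737 libraries, and skin had 3 of each.

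Total counts per library were 1431814 to 3513311 in kidney, 223957 to 891116 in liver, 1046508 to 2600092 in lung and 1493411 to 3842808 in skin, so liver was the shallowest tissue. The tissue labels were checked against defining transcripts, as summed CPM, counts scaled to a common library size. Hepatocyte markers, led by albumin (Alb), summed to between 83660 and 142800 CPM in the liver libraries, with all 13 detected. Proximal tubule markers, led by the phosphate transporter Slc34a1, summed to 12000 to 18640 CPM in kidney with all 9 detected. Alveolar type 2 markers, led by surfactant protein C (Sftpc), summed to 22090 to 34880 CPM in lung with all 7 detected. Keratinocyte markers, led by Krt10, summed to 11690 to 37970 CPM in skin with all 8 detected.

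Apolipoproteins are the protein components of the particles that carry lipid through blood. ApoB is the non-exchangeable scaffold of very-low-density lipoproteins and chylomicrons, whereas ApoA-I, encoded by Apoa1, is the main protein of high-density lipoproteins (HDL), and hepatocytes and enterocytes secrete both. The exchangeable members move between particles and set their fate: ApoC-II, encoded by Apoc2, activates lipoprotein lipase, ApoC-III and ApoC-I restrain triglyceride clearance, ApoA-V promotes it, and ApoE is the ligand by which remnants enter cells through the LDL receptor family. Apoe is also made outside the liver, above all by macrophages and astrocytes, and Apom, which binds sphingosine 1-phosphate in HDL, is made by hepatocytes and kidney tubules.

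In mm10, the build of the deposited files, 7 of the 10 genes lie in clusters on chromosomes 9 and 7. Apoa1 (chr9:46228630-46230469, + strand), Apoc3 (chr9:46233050-46235299, − strand), Apoa4 (chr9:46240844-46243458, + strand) and Apoa5 (chr9:46268608-46271919, + strand) are neighbours. So are Apoc2 (chr7:19671579-19673920), Apoc1 (chr7:19689480-19692659) and Apoe (chr7:19696244-19699188), all on the − strand. Apob (chr12:7977677-8016839, + strand), whose annotated transcript of 13878 bases is by far the longest of the members, Apoa2 (chr1:171225054-171226379, + strand) and Apom (chr17:35128997-35131752, − strand) stand alone. Apoc2 overlaps the readthrough gene Apoc4-apoc2 on the same strand, and Apoa4 and Apoa5 overlap antisense transcripts. Whether counting used strand is not given in the sources used here, so reads of Apoc2, Apoa4 and Apoa5 may be shared with those neighbours. In the skin table, whose windows are longer, Apoa1 and Apoc3 overlap each other and Apom overlaps D17H6S53E, in both cases on opposite strands, so their skin counts may be shared too.

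RefSeq entries (GRCm38.p6, the assembly named mm10) for the region from 250 bases before to 50 bases after the gene start were matched for 8 of the 10 genes. The promoters of the 3 genes that differed between old vehicle and young livers, and of Apoe, which was well detected in all 4 tissues, are shown 5′ to 3′ on the strand of the gene, with any match to a searched motif in capitals. They are Apoa4 (chr9:46240594-46240893, + strand), Apob (chr12:7977427-7977726, + strand), Apom (chr17:35131752-35132051, − strand) and Apoe (chr7:19699139-19699438, − strand).
Apoa4: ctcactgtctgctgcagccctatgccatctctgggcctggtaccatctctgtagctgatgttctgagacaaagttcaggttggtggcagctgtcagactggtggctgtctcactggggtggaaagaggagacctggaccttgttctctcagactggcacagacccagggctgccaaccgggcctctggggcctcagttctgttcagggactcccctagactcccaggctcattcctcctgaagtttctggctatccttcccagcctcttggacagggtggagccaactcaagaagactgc
Apob: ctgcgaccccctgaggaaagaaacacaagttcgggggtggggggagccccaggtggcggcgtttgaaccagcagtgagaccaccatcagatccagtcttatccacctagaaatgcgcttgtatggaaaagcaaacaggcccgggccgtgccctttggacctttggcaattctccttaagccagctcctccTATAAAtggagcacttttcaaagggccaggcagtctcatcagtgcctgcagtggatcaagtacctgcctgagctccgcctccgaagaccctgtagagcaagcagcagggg
Apom: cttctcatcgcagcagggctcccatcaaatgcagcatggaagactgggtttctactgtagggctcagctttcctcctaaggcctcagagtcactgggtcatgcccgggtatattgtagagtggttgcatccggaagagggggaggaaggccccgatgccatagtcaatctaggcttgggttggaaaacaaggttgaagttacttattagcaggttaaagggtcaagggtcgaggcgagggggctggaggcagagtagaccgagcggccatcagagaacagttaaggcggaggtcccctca
Apoe: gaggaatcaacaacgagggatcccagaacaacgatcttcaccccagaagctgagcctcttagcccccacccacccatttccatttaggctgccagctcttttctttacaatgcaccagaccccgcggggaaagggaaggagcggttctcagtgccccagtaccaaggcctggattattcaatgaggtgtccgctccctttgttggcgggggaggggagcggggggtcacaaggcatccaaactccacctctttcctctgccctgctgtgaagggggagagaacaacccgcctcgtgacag
The motifs were searched on both strands by their letters: TATAAA for the TATA box, CACGTG for the E-box, TTANGTAA for the D-box, AGGTCA for a single site of nuclear receptors, CAAAGTCCA for HNF4 and TTGCGCAA for C/EBP, and the HNF1 motif by a pattern with 1 free base. Apoe has 3 RefSeq entries, of which the 1 that starts at the deposited 5′ end is shown. The Apom entry starts at base 35131801, upstream of the deposited 5′ end at 35131752, so the window shown ends at that 5′ end. Among the 4 sequences shown, only Apob held a match, a TATAAA that begins 60 bases before the start, and 13.6% of the 32851 promoters of the same length in the RefSeq set hold that motif. A second Apoe entry (chr7:19698572-19698871) held TATAAA on the gene's strand 96 bases before its start and on the other strand 100 bases before it. The Apoa5 promoter held TATAAA and CACGTG, which occur in 13.6% and 7.15% of all promoters. The 2 Apoa2 entries held AGGTCA on the other strand in 1 and TATAAA in the other, 238 and 212 bases before their starts. The Apoc2 entry starts at base 19677941, upstream of the deposited 5′ end at 19673920, so it is not the promoter of the start given above. It held AGGTCA 115 bases before and 43 bases after its own start, and 16.3% of all promoters hold that motif. The entries of Apoa1, Apoa4 and Apom held no match, which says only that these letters are not in this window.

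Several libraries stood apart from the others of their group. Vehicle replicate 3 of liver was the shallowest library, at 223957 counts, and held 8907 CPM of Alb against 30300 to 41160 CPM in the other 9 livers. Young replicate 1 of lung held 294 counts of Apoa1 against 3 to 11 in the other 3 young lungs. ABT-737 replicate 4 of lung held adipocyte markers at a summed 7960 CPM, led by Cfd, against 72.2 to 270.3 CPM in the other 9 lungs, and its hepatocyte marker sum, led by the broadly expressed Trf, was the highest of the 10 lungs at 1812 CPM. Young replicate 1 of skin held 170 CPM of Alb against 8.06 and 5.003 CPM in the other young skins. The main results that rest on these libraries are given with and without them.

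In young mice the liver had the highest level of every member among kidney, liver and lung, the 3 tissues counted in 1 table. All 10 were higher in liver than in kidney (adjusted p at most 8.51e-08, edgeR's quasi-likelihood test over 13107 genes with Benjamini-Hochberg adjustment), where 13.7% of all genes tested were higher in liver, and all 10 were higher in liver than in lung, against 24.6% of all genes. The gap between liver and kidney was narrowest for Apom. It measured 205 ± 4.67 CPM in young kidney and 791 ± 139 CPM in young liver (mean ± SD, n = 4 each, scaled jointly over the 3 tissues), a 3.86-fold difference (log2 1.95, SE 0.255). Apoa4, which is associated with triglyceride-rich particles, was 10.8-fold higher in liver than in kidney, and Apob 26.8-fold. Apoc3 was 200-fold higher in liver than in kidney, Apoe 126-fold and Apoc1 2800-fold. Kidney Apoa1 (4 to 9 counts in young kidneys), Apoa5 and Apoc2 lay at or close to the detection limit of these libraries (a floor of 3 counts), and no fold is given for them.

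The order of the other tissues depended on the member. Between lung and kidney 9 of the 10 differed, against 64.3% of all genes tested. Apoe, Apoc1 and Apoc2 followed the order liver, lung, kidney: Apoe was 3.23-fold higher in lung than in kidney and Apoc1 14.5-fold. The order liver, kidney, lung held for Apob, Apom, Apoa4 and Apoc3, which were at or near 0 counts in most lungs, so that no fold is given. Apob had 49 to 120 counts in young kidneys and 0 or 1 in young lungs, and Apom 510 to 791 counts against 2 to 4. Kidney and lung did not differ in Apoa2 beyond their spread (log2 1.02, adjusted p = 0.127). Apoa1 and Apoa5, which passed as higher in lung, rested on young replicate 1: without it neither passed (adjusted p = 0.59 and 0.46).

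**Figure D1:**
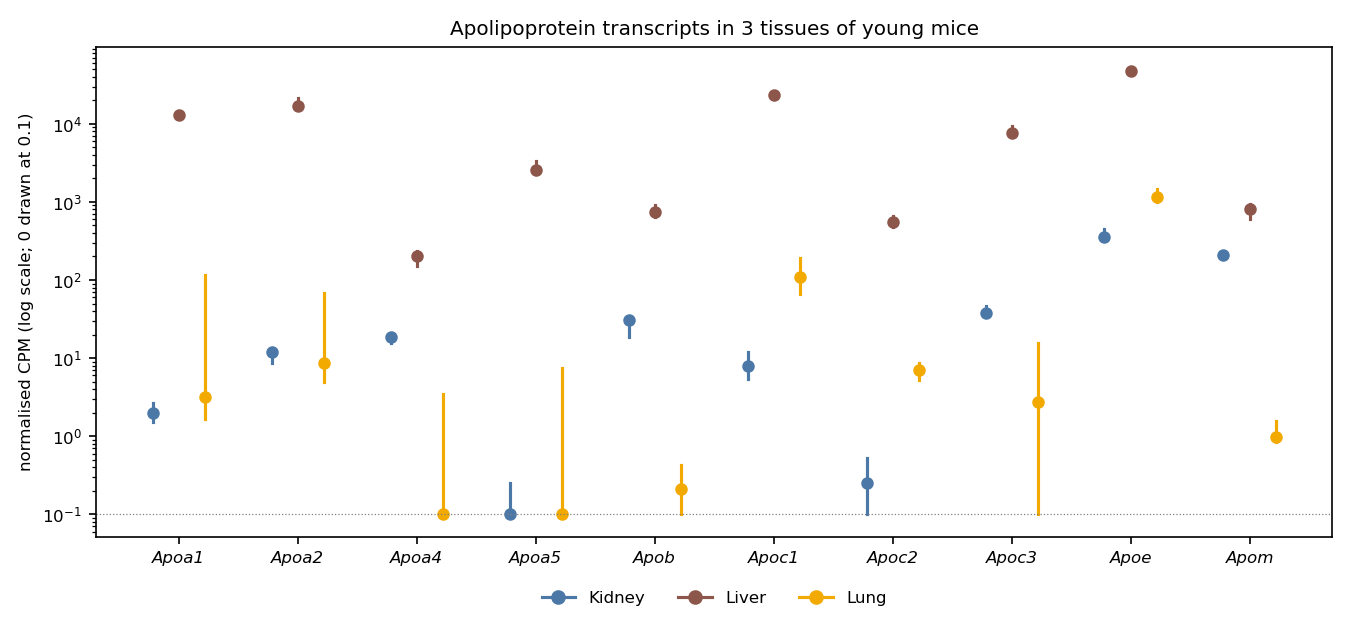
Normalised CPM (log axis) of the 10 apolipoprotein transcripts in kidney, liver and lung of young mice; dots are medians and lines run from the lowest to the highest of 4 libraries, with 0 drawn at 0.1. Liver lies above kidney and lung for every gene, and the gap to kidney is narrowest for Apom.

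Old livers differed from young livers in 3 members. Between vehicle-treated old mice and young mice Apob and Apom fell and Apoa4 rose, 3 of the 10 tested, against 22.6% of the 5583 genes tested in liver. Between the same groups, the other 7 did not pass the test. The 2 with the largest differences, Apob and Apoa4, both encode proteins of secreted triglyceride-rich particles and moved in opposite directions.

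Apob, the scaffold of very-low-density lipoprotein, measured 549.9, 541, 659 and 478 CPM in the 4 young livers. It measured 26.2, 136 and 186 CPM in the 3 vehicle livers and 119, 167 and 81.7 CPM in the 3 ABT-737 livers, so that every old liver lay below every young one. The vehicle value was 4.46-fold lower than the young one (log2 −2.16, SE 0.388, 95% confidence interval −2.98 to −1.34, adjusted p = 0.00103 in edgeR's quasi-likelihood test). The counts behind it were 284, 363, 429 and 249 in young livers and 6, 116 and 145 in vehicle livers. Leaving out the shallow vehicle library gave a log2 difference of −1.79 (adjusted p = 6.39e-05). With ABT-737 the log2 difference from young was −2.17 (SE 0.397, adjusted p = 0.00396), and with Apoa4 it was 1 of 2 members that passed in that comparison, against 8.4% of all genes. Without vehicle replicate 3, which enters the shared estimate of spread, 6 members passed (Apoa4, Apob, Apoc1, Apoc2, Apoc3 and Apom) against 16% of all genes. With only the 2 groups in the fit 9 did, all but Apoa5, against 21.6% of the 5110 genes then tested.

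Apoa4, which is induced in liver under lipid load, measured 149, 109, 174 and 152 CPM in young livers. In vehicle livers it measured 541, 683 and 457 CPM, and in ABT-737 livers 242, 451 and 522 CPM. No old liver overlapped the young range. The vehicle value was 3.85-fold that of young livers (log2 1.94, SE 0.268, adjusted p = 0.000148) and the ABT-737 value 2.8-fold (log2 1.49, SE 0.27, adjusted p = 0.00382). Across 6 changes of scaling, filter, tool and sample choice, and across 10 fits that each left out 1 library, the rise between young and vehicle passed in all.

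Apom measured 598, 598, 677 and 445 CPM in young livers, 153, 339.5 and 425 CPM in vehicle livers and 206, 381 and 344 CPM in ABT-737 livers. The groups did not overlap, but the lowest young liver lay close to the highest vehicle liver. Apom was 1.85-fold lower in vehicle livers (log2 −0.89, 95% interval −1.54 to −0.24, adjusted p = 0.0465) and as low in ABT-737 livers, where it did not pass (log2 −0.89, adjusted p = 0.0875). In ABT-737 livers it passed when vehicle replicate 3 was left out (log2 −0.87, adjusted p = 0.0115), without the filter on low counts (adjusted p = 0.0311) and with only the 2 groups in the fit (adjusted p = 0.00413). The vehicle call was lost without vehicle replicate 3 (log2 −0.60, adjusted p = 0.0838) and in 6 others of the 10 fits that left out 1 library. It was also lost with only the 2 groups in the fit (adjusted p = 0.0641).

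Apoa1, the main HDL protein, did not pass in edgeR's test, but DESeq2 called it (log2 0.60, adjusted p = 0.0193), and it passed in 1 of the 10 fits that left out 1 library, that without vehicle replicate 4 (adjusted p = 0.0274). It measured 9689, 9375, 8726 and 10140 CPM in young livers, 16980, 12200 and 14890 CPM in vehicle livers and 12810, 14560 and 12180 CPM in ABT-737 livers. All 6 old livers lay above all 4 young ones (vehicle against young log2 0.63, 95% interval 0.13 to 1.13, adjusted p = 0.0638). The remaining 6 members differed between vehicle and young livers by log2 0.06 to 0.34, with adjusted p of 0.382 to 0.9. Among these, Apoc1, Apoe, Apoa2 and Apoa5 turned negative without vehicle replicate 3, at −0.30, −0.22, −0.42 and −0.18.

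Between ABT-737 and vehicle livers none of the 10 members passed in edgeR's quasi-likelihood test, where 3.85% of all genes did. At an unadjusted p under 0.05 there were 899 genes and 0 members, and DESeq2 called 205 genes and 0 members. For Apob the log2 difference was −0.01 with a 95% interval of −0.89 to 0.86, and for Apom 0.00 with an interval of −0.69 to 0.70, so differences of up to almost 2-fold in either direction remain within the error. Apoa4 differed by −0.46 (interval −1.06 to 0.14, adjusted p = 0.474). The comparisons of vehicle and of ABT-737 with young share the same 4 young libraries, and their values stand side by side above without being set against each other.

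Leaving out the shallow library changed 2 of these results, those of Apoc1 and Apoa2, in a fit where 8.78% of all genes passed. Apoc1, an inhibitor of lipoprotein uptake, measured 25730, 11980 and 15450 CPM in vehicle livers and 23100, 25640 and 30530 CPM in ABT-737 livers, with the highest vehicle value in replicate 3. With all libraries the log2 difference was 0.58 (interval −0.06 to 1.22, adjusted p = 0.383), and without vehicle replicate 3 it was 0.96 (adjusted p = 0.0144). Apoa2, the second HDL protein, measured 25650, 6952 and 12680 CPM in vehicle livers against 23220, 15940 and 20190 CPM with ABT-737. Its log2 difference was 0.39 (interval −0.41 to 1.19, adjusted p = 0.682) with all libraries and 1.02 (adjusted p = 0.0264) without that replicate. Apoe, at 56280, 26870 and 32590 CPM against 45610, 46070 and 48280 CPM, and Apoc3, at 10340, 5103 and 6464 CPM against 8354, 9615 and 9586 CPM, did not pass with or without it (without it, log2 0.66 and 0.68, adjusted p = 0.0822 and 0.0799). In each of these 4 genes the 2 other vehicle livers lay below all 3 ABT-737 livers.

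Apoc2 and Apoa5 completed the set. Apoc2, the activator of lipoprotein lipase, measured 379.5, 472, 433 and 357 CPM in young, 423, 417 and 660.1 CPM in vehicle and 649.9, 628 and 602 CPM in ABT-737 livers. All 3 ABT-737 livers lay above all 4 young ones, but the difference did not pass (log2 0.61, adjusted p = 0.106), whereas without vehicle replicate 3 it did (log2 0.62, adjusted p = 0.0349). Apoa5 overlapped across all groups, at 1638 to 2398 CPM in young, 1600 to 2981 CPM in vehicle and 1807 to 2570 CPM in ABT-737 livers.

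Together the 10 genes took a large share of liver counts. They made up 7.92% to 8.75% of all counts in young livers (mean 8.23 ± 0.385, n = 4) and 10.9% to 11.8% in ABT-737 livers (11.2 ± 0.506, n = 3). In vehicle livers the share was 14.2% in replicate 3 and 6.70% and 7.46% in the others. Vehicle replicate 3 is the library in which the share of Alb was lowest and that of the 10 genes highest. The part of this share in the levels of other liver genes was not tested.

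**Figure D2:**
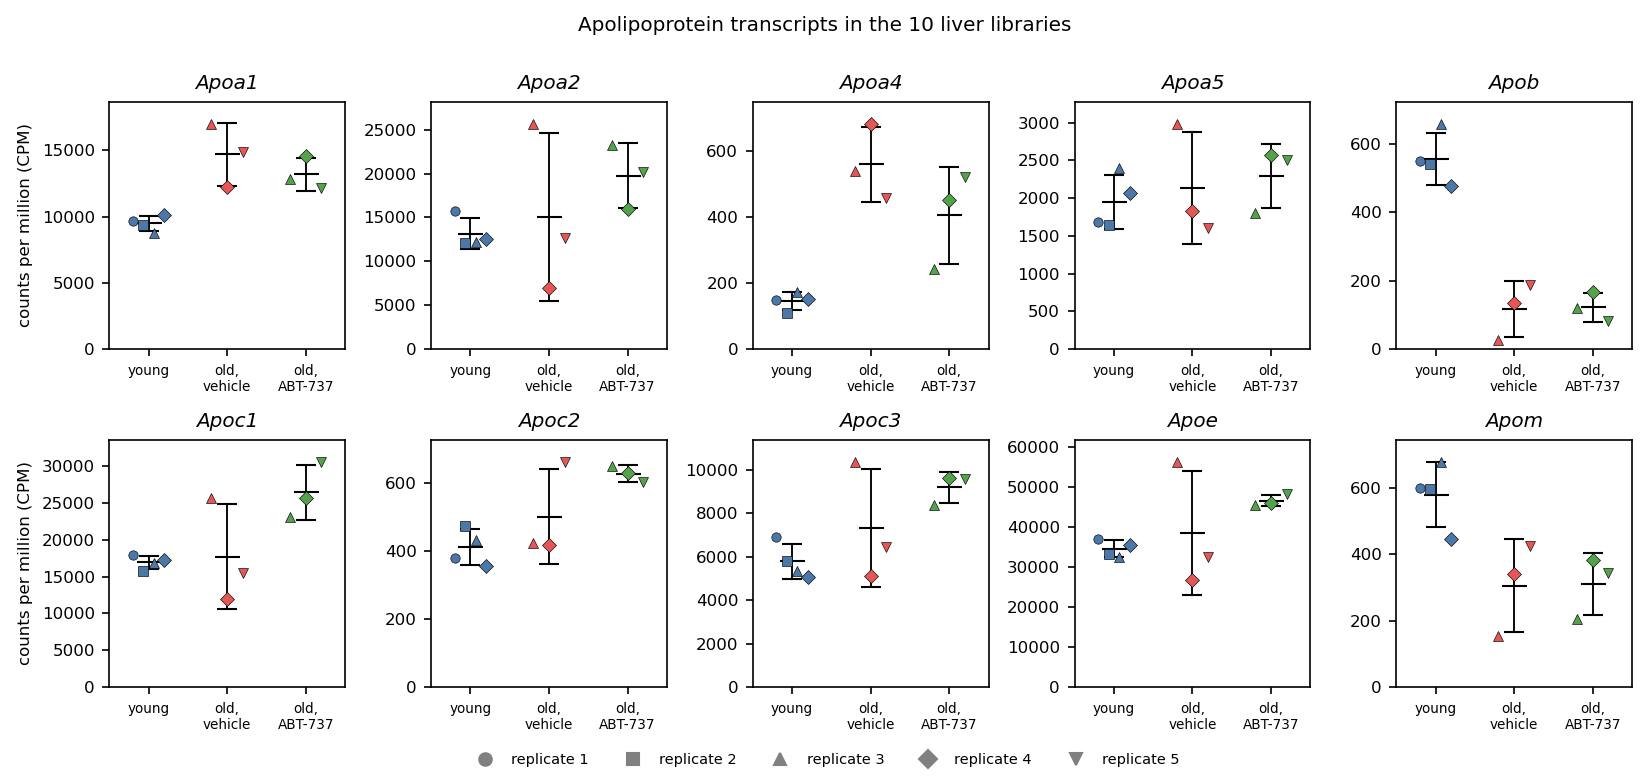
CPM of each of the 10 apolipoprotein transcripts in the 10 liver libraries by group; each marker is 1 library, its shape the replicate number, and bars are the mean ± SD. Apob and Apom of old livers lie below, and Apoa4 and Apoa1 above, every young liver, while vehicle replicate 3 (triangle) is the highest vehicle library for Apoa2, Apoc1, Apoc3 and Apoe.

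Other long transcripts are given beside Apob. Of the 73 genes tested in liver with an annotated transcript of at least 10000 bases, the median log2 difference between vehicle and young was 0.28, and Apob was the only one as low as −2.16. Among 175 genes of at least 8000 bases the median was 0.24, and again only Apob was as low. Among 734 genes of at least 5000 bases the median was 0.19 and 5 were as low, Apob included, and between ABT-737 and young livers 10 of the 734 were as low as Apob. RNA integrity values were not analysed here, and the part of transcript length in the Apob difference was not tested.

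Across the 10 livers the members fell into groups by their pattern, described by Pearson's r of log2(CPM + 1) with no test, because all points share groups and libraries. Apob and Apom varied together (r = 0.918), and Apob ran opposite to Apoa1 (−0.872) and Apoa4 (−0.805). Apoc1, Apoa2 and Apoc3 followed Apoe (0.948, 0.94 and 0.925). Without vehicle replicate 3 the r of Apob was 0.847 with Apom, −0.807 with Apoa1 and −0.843 with Apoa4, and that of Apoe was 0.977 with Apoc1, 0.92 with Apoa2 and 0.903 with Apoc3. Among all genes tested, the patterns most like Apob were those of Azin1 (0.997), an inhibitor of antizyme, Mgat2 (0.993), a glycosyltransferase of the Golgi, and Etfa (0.989), a subunit of the mitochondrial electron transfer flavoprotein. Apoa4 was followed by the proteoglycan gene Sdc1 (0.971), the lysosomal membrane gene Lamp1 (0.965) and Cdhr5 (0.964), and Apom by Akr1e1 (0.974). Apoc2 was followed by Apoc4-apoc2 (0.998), with which it overlaps.

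In kidney Apoe rose in old vehicle mice. It was the only one of 7 tested that passed, against 13.3% of the 11123 genes tested. Apoe measured 411, 366, 504 and 387 CPM in young kidneys and 749.6, 2191 and 1281 CPM in vehicle kidneys. All 3 vehicle kidneys lay above all 4 young ones, with replicate 4 the highest. The vehicle value was 3.37-fold that of young kidneys (log2 1.75, SE 0.256, adjusted p = 0.000278), and without replicate 4 the log2 difference was 1.28 (adjusted p = 0.000919).

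Treated kidneys lay in between. Apoe measured 721, 534 and 708 CPM with ABT-737, all below the lowest vehicle kidney and above the highest young one. The log2 difference from vehicle was −1.10 (95% interval −1.69 to −0.52) and did not pass (adjusted p = 0.0657). No member passed in this comparison, where 1.35% of all genes did, with 1647 genes and 2 members at an unadjusted p under 0.05 and 229 genes called by DESeq2, of the members Apoe. The result depended on single vehicle libraries: without replicate 4 the log2 difference was −0.63 (adjusted p = 0.318), and without replicate 3 it was −1.41 (adjusted p = 0.00272). Against young, Apoe with ABT-737 was higher by log2 0.65 (adjusted p = 0.209). In that comparison no member passed, where 2.12% of all genes did, with 1862 genes and 4 members at an unadjusted p under 0.05 and 353 genes and 0 members called by DESeq2.

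The other kidney members kept lower levels. Apoc1, the neighbour of Apoe, measured 6.00, 8.54, 8.78 and 13.4 CPM in young, 10.2, 25.3 and 15.96 CPM in vehicle and 11.8, 5.44 and 5.19 CPM in ABT-737 kidneys. It differed by log2 0.86 between vehicle and young (adjusted p = 0.112) and by −1.14 between ABT-737 and vehicle (interval −1.98 to −0.29, adjusted p = 0.187), and the groups overlapped. Apom, the member kidney shares most with liver, measured 218 to 235 CPM in young, 194 to 215 CPM in vehicle and 223 to 280.1 CPM in ABT-737 kidneys (vehicle against young log2 −0.16, adjusted p = 0.445). The effect of age on Apom did not differ between liver and kidney beyond error (log2 −0.69, adjusted p = 0.512).

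Apoa4 and Apoc3, neighbours on chromosome 9, were lower in the old kidneys without passing in the main fit. Apoa4 measured 20.6, 20.7, 17.3 and 23.5 CPM in young and 10.6, 16.4 and 10.8 CPM in vehicle kidneys (log2 −0.73, adjusted p = 0.0864), with no overlap. Apoa4 passed there with only the 2 groups in the fit (adjusted p = 0.0339, where 16.9% of genes passed) and without ABT-737 replicate 5 (adjusted p = 0.0378). Apoc3 measured 38.8 to 51.0 CPM in young and 20.4, 40.4 and 33.3 CPM in vehicle kidneys (log2 −0.52, adjusted p = 0.123). Between ABT-737 and young, Apoc3 differed by log2 −0.71 (adjusted p = 0.0967). It passed there without the filter on low counts (adjusted p = 0.0443) and without vehicle replicate 3 (adjusted p = 0.0467). Apob (21.0 to 36.9 CPM in young, 23.3 to 44.8 CPM in vehicle) and Apoa2 (9.66 to 15.2 CPM and 8.25 to 13.0 CPM) overlapped. Of those too low to test, Apoa1 had 1 to 9 counts per kidney and Apoa5 0 or 1, whereas Apoc2 had 0 to 2 counts in young, 1, 10 and 11 in vehicle and 2, 0 and 0 in ABT-737 kidneys. Between vehicle and young, kidney Apoc2 passed without the filter on low counts. It also passed in the 4 fits that left out vehicle replicate 3 or any of the ABT-737 libraries. Without vehicle replicate 3 it passed between ABT-737 and vehicle too. In the fits with the filter, its vehicle counts alone let it be tested. Young and ABT-737 kidneys lay at the floor, so no conclusion is drawn from these calls.

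In lung 1 of 5 tested members changed between old vehicle and young mice, against 12.9% of the 11949 genes tested. Apoc2 measured 10.8, 7.65, 6.51 and 9.88 CPM in young lungs (11 to 22 counts) and 12.1, 36.5 and 32.9 CPM in vehicle lungs (18, 85 and 88 counts). All vehicle lungs lay above the young ones, replicate 3 by little. The vehicle value was 3.13-fold that of young lungs (log2 1.64, SE 0.436, adjusted p = 0.0244). The call was lost on leaving out vehicle replicate 5 (adjusted p = 0.113) or young replicate 1 (adjusted p = 0.0539, where 6.77% of all genes passed), and it held in 4 of the 10 fits that left out 1 library. Without ABT-737 replicate 4 Apoa2 passed too, as lower in vehicle lungs (log2 −2.93, adjusted p = 0.0383), against 16.1% of all genes.

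With ABT-737 the lungs had 3.22, 13.7 and 8.05 CPM of Apoc2 (5, 13 and 18 counts), which overlapped the vehicle lungs in replicate 4. For each of the 3 replicate numbers the ABT-737 lung was lower than the vehicle lung, though a shared number does not establish a pair. The log2 difference from vehicle was −1.79 (95% interval −2.85 to −0.73, adjusted p = 0.129), and with the replicate block it was −1.76 (adjusted p = 0.0666). No gene in lung passed between ABT-737 and vehicle (0 of 11949, or 0%, in edgeR's quasi-likelihood test), whereas 72 genes (0.625%) and no member did with the replicate block. At an unadjusted p under 0.05 there were 1919 genes, Apoc2 being the only member, and DESeq2 called 301 genes, of the members Apoc2. Without ABT-737 replicate 4, the library rich in adipocyte transcripts, the log2 difference of Apoc2 was −2.24 (adjusted p = 0.0248), in a fit where 5.42% of the 12461 genes tested passed.

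Apoe of lung was high in some old lungs only. It measured 1437, 1500, 1263 and 1839 CPM in young, 1692, 2684 and 5932 CPM in vehicle and 1709, 3189 and 1684 CPM in ABT-737 lungs. Vehicle lungs overlapped the young ones, and Apoe did not pass in edgeR's test (log2 1.19, SE 0.417, adjusted p = 0.0747). Without vehicle replicate 5 the log2 difference was 0.53 (adjusted p = 0.477), whereas without vehicle replicate 3 Apoe passed (adjusted p = 0.0361). DESeq2 called Apoe, and it passed with only the 2 groups in the fit, where 19.4% of genes did. Apoc1 ran from 82.7 to 243 CPM in young and from 70.4 to 112 CPM in vehicle lungs, and its highest value, 449 CPM, was in ABT-737 replicate 4. Between ABT-737 and young lungs no member passed, where 2.55% of all genes did, with 2448 genes and 1 member at an unadjusted p under 0.05 and 783 genes and 0 members called by DESeq2. That share was 0.00844% (1 gene) without young replicate 1 and 11.2% without ABT-737 replicate 4, again with no member.

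The liver-type members in lung were carried by 1 library. Young replicate 1 held 294 counts of Apoa1, 177 of Apoa2, 9 of Apoa4, 19 of Apoa5 and 40 of Apoc3. The other 9 lungs held 0 to 11 counts of Apoa1, 3 to 28 of Apoa2, 0 of Apoa4, 0 to 2 of Apoa5 and 0 to 9 of Apoc3. Alb in that library, at 27 counts, was not above the 29 counts of young replicate 4. Its hepatocyte marker sum without Trf was 406 CPM, against 47.2 to 110.2 CPM in the other young lungs and 846 CPM in ABT-737 replicate 4, with 11 of the 13 markers detected. Apoa1 and Apoa2 differed by log2 −4.69 and −2.91 between vehicle and young lungs without passing (adjusted p = 0.057 and 0.073), and Apoa2 by −1.28 (adjusted p = 0.353) without that library. Apob and Apom had at most 4 counts in any lung.

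**Figure D3:**
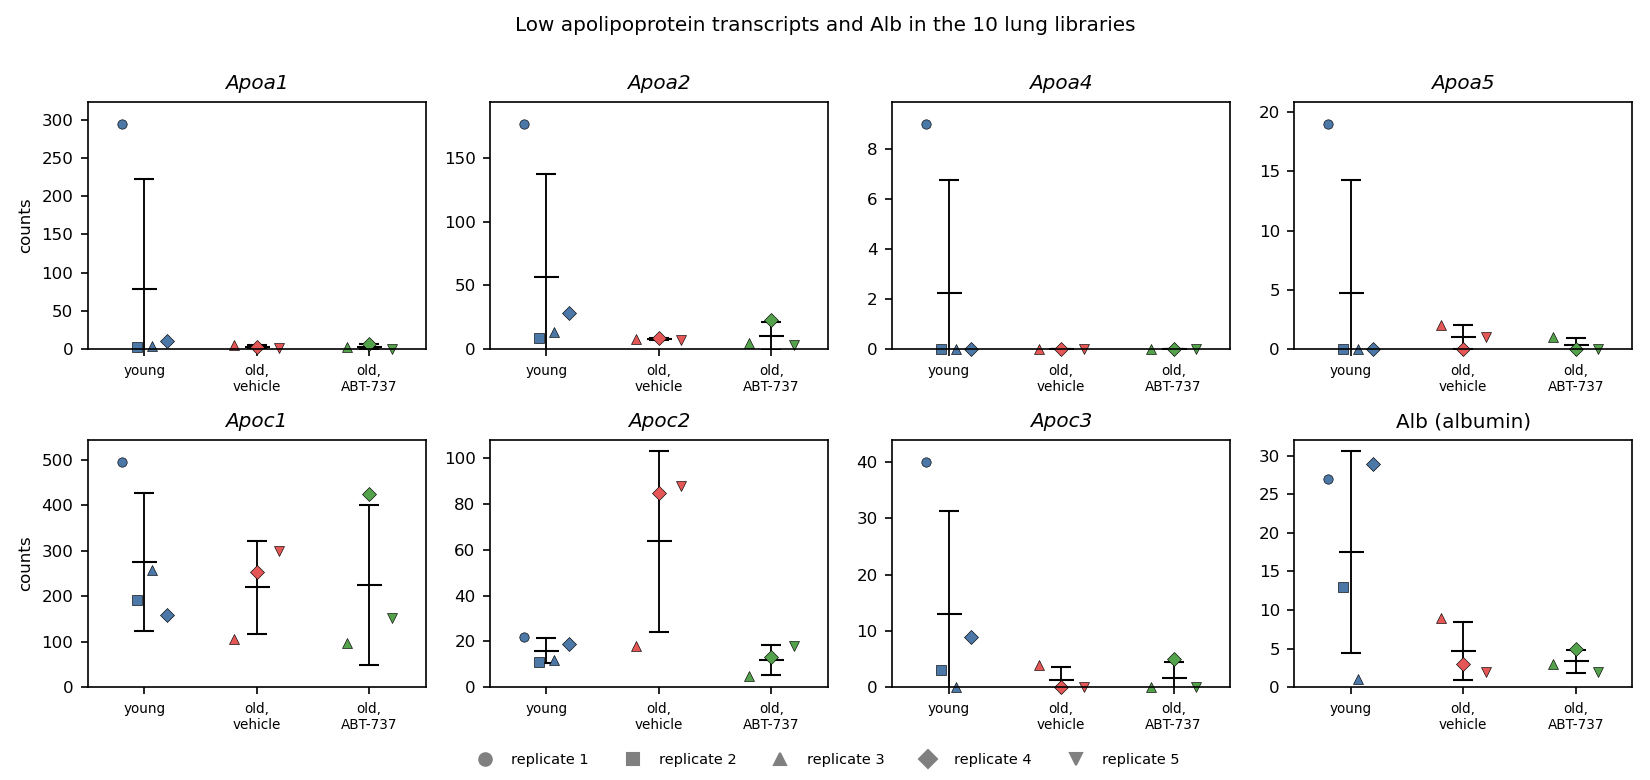
Counts of 7 low apolipoprotein transcripts and of Alb in the 10 lung libraries by group; each marker is 1 library, its shape the replicate number, and bars are the mean ± SD, their lower ends cut at 0. Young replicate 1 (circle) alone carries most counts of Apoa1, Apoa2, Apoa4, Apoa5 and Apoc3, while its Alb is matched by young replicate 4.

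In skin Apoc1 rose with age. It was the 1 member of 4 tested that passed, against 11.2% of the 14224 genes tested. Apoc1 measured 312, 388 and 362 CPM in young skins, 573, 601 and 528 CPM in vehicle skins and 521, 436 and 499 CPM in ABT-737 skins, and no old skin overlapped the young range. The vehicle value was 1.6-fold that of young skins (log2 0.68, SE 0.182, adjusted p = 0.0425), a call that was lost in 7 of the 9 fits that left out 1 library. Without young replicate 1 it was log2 0.59 (adjusted p = 0.152), where 0.26% of all genes passed. With ABT-737 the log2 difference from young was 0.46 (adjusted p = 0.132).

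Apoe of skin showed a smaller difference. It measured 3753, 3989 and 3571 CPM in young, 4573, 5212 and 4742 CPM in vehicle and 4320, 3878 and 5481 CPM in ABT-737 skins. Vehicle skins lay above young ones without passing (log2 0.36, adjusted p = 0.257). Between ABT-737 and vehicle no gene passed in skin (0 of 14224, or 0%, in edgeR's quasi-likelihood test, with 1134 genes and 0 members at an unadjusted p under 0.05, and 60 genes and 0 members called by DESeq2). Apoc1 then differed by log2 −0.22 with a 95% interval of −0.63 to 0.18. Between ABT-737 and young skins no member passed, where 5.17% of all genes did, with 4271 genes and 1 member at an unadjusted p under 0.05 and 2116 genes and 0 members called by DESeq2.

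The remaining members were scarce in skin. Apoa1 had 57, 8 and 4 counts in young, 14, 26 and 2 in vehicle and 26, 5 and 4 in ABT-737 skins, and Apoa2 had 96, 26 and 5, then 35, 44 and 4, then 61, 11 and 7. Both were highest in young replicate 1, and their log2 differences between vehicle and young, −1.55 and −1.42, became 0.72 and 0.32 without it. Alb was distributed alike, at 235, 14 and 11 counts in young, 41, 85 and 7 in vehicle and 80, 6 and 4 in ABT-737 skins. Apoc2 had 0 to 5 counts in all skins except vehicle replicates 4 and 5, with 10 and 64. Apoc3 had 0 to 18 counts, Apoa5 0 to 8, Apom 1 to 6, and Apoa4 and Apob 0 or 1.

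**Figure D4:**
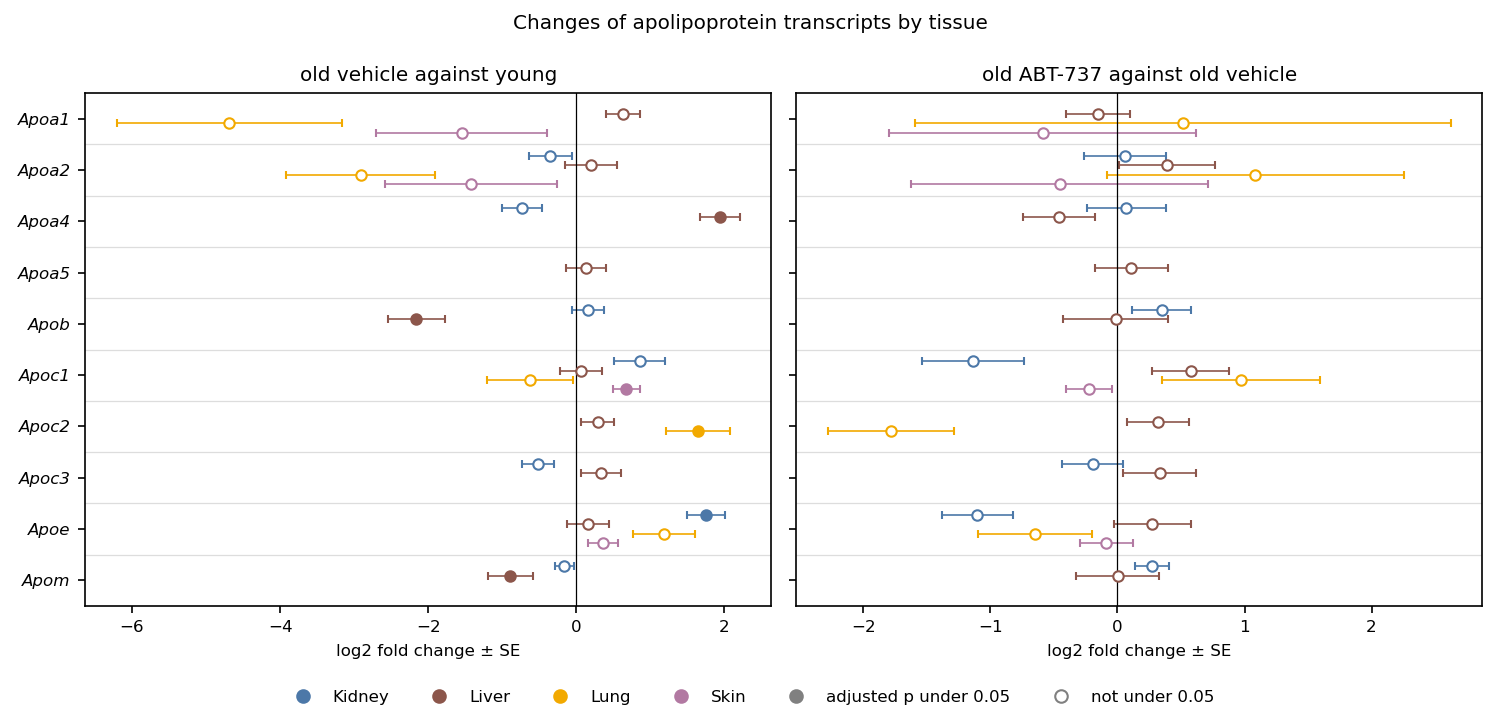
Log2 fold change ± SE of each apolipoprotein transcript that could be tested, by tissue (color), for old vehicle against young mice (left) and old ABT-737 against old vehicle mice (right); filled circles have an adjusted p under 0.05. Filled circles are Apoa4, Apob and Apom in liver, Apoe in kidney, Apoc2 in lung and Apoc1 in skin on the left, and there is none on the right.

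Whether tissues differed in their response to age was tested as an interaction over kidney, liver and lung. Between liver and kidney 2 of the 10 members passed, against 0.786% of the 13107 genes tested. Apoa4 differed by log2 2.68 (SE 0.53, adjusted p = 0.00813), with log2 1.94 in liver and −0.73 in kidney. Apob differed by −2.26 (SE 0.48, adjusted p = 0.0136), with log2 −2.16 in liver and 0.16 in kidney. The Apob call was lost without vehicle replicate 3 of kidney (−2.02, adjusted p = 0.0631). In each fit that left out 1 library 2 members passed, so in that one members other than Apob did. For Apoe, which rose in kidney, the difference was −1.59 and did not pass in edgeR's test (SE 0.568, adjusted p = 0.221). DESeq2 called Apoe among 192 genes in this interaction.

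Between liver and lung 4 of the 10 passed, against 11.4% of all genes. These were Apoa1 (log2 5.31, adjusted p = 0.00543), Apoa2 (3.09, adjusted p = 0.0288), Apoa4 (5.84, adjusted p = 0.0108) and Apoc3 (3.58, adjusted p = 0.034). All 4 rested on young lung replicate 1, without which 0 members passed and the values were 1.84, 1.48, 1.94 and 2.03 (adjusted p of 0.181 to 1). Apoa4 and Apoc3 were too low to test in lung alone and entered the joint fit through the other tissues. No difference between liver and lung is read from their calls. Apoa4 had 0 counts in all vehicle lungs, so the size of its fitted value depends on the prior count. Between lung and kidney no member passed, where 8.04% of all genes did, with 3131 genes and 4 members at an unadjusted p under 0.05 and 1437 genes and 1 member called by DESeq2. The effect of ABT-737 against vehicle was compared between tissues in the same way. No member passed between liver and kidney, where 0.0839% of genes did, with 964 genes and 3 members at an unadjusted p under 0.05 and 20 genes and 0 members called by DESeq2. None passed between liver and lung, where 0.29% of genes did, with 1613 genes and 1 member at an unadjusted p under 0.05 and 98 genes and 1 member called by DESeq2. None passed between lung and kidney, where 0% of genes did, with 1219 genes and 1 member at an unadjusted p under 0.05 and 10 genes and 0 members called by DESeq2.

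The machinery around the apolipoproteins was described with 6 lists, whose counts in liver between vehicle and young mice stand against 22.6% of all genes. Of 14 genes of lipoprotein assembly tested, 1 passed. Sar1b, a GTPase that carries lipoprotein particles out of the endoplasmic reticulum, was lower at 160 ± 70.9 CPM against 339.7 ± 40.2 CPM (log2 −1.04, adjusted p = 0.00979). Mttp, which loads lipid onto ApoB, measured 65.4 against 108 CPM and did not pass (log2 −0.65, adjusted p = 0.066). Of 5 other apolipoproteins Clu (apolipoprotein J) rose (4261 ± 832 against 2464 ± 345 CPM, log2 0.79, adjusted p = 0.0363) and Apoh fell (1560 ± 808 against 3070 ± 178 CPM, log2 −0.97, adjusted p = 0.0278).

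Among 11 lipases and plasma remodelling genes, 2 passed as higher and 1 as lower. Pla2g7, a phospholipase carried on lipoproteins and made by macrophages, had 5, 19 and 20 counts in vehicle against 0 to 3 counts in young livers (adjusted p = 0.000683). Its vehicle counts alone let it be tested, so no conclusion is drawn from its call. Pltp, a phospholipid transfer protein, measured 129 ± 26.0 against 46.1 ± 19.9 CPM (log2 1.48, adjusted p = 0.00309). Lipc, the hepatic lipase, fell from 168 ± 18.6 to 68.1 ± 16.8 CPM (log2 −1.29, adjusted p = 0.00437). Of 7 receptors Sdc1, a proteoglycan that binds remnants, rose (516 ± 64.6 against 215 ± 18.6 CPM, log2 1.27, adjusted p = 0.000444), and of 5 sterol efflux genes Npc2 rose (173 ± 7.75 against 105 ± 9.94 CPM, log2 0.70, adjusted p = 0.0149).

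Of 15 transcription factors known to act on apolipoprotein genes, 4 fell and none rose, a share close to the 22.6% of all genes. They were Foxa2 (15.3 ± 7.28 against 44.6 ± 4.23 CPM, log2 −1.39, adjusted p = 0.0117), Cebpa (log2 −0.93, adjusted p = 0.0231), Creb3l3 (363 ± 80.6 against 665 ± 49.7 CPM, log2 −0.86, adjusted p = 0.0122) and the carbohydrate-response factor Mlxipl (log2 −0.78, adjusted p = 0.0463). Hnf4a, a central regulator of hepatic genes, measured 719 against 660 CPM (log2 0.13, adjusted p = 0.731). Every list gene named here as changed between vehicle and young livers also passed without vehicle replicate 3, where 24.7% of all genes did. In that fit 3 assembly genes passed, 2 efflux genes and 5 transcription factors, among them the cholesterol exporter Abcg1 (log2 2.41, adjusted p = 0.000117). It tested 6 efflux genes and 16 transcription factors, against 5 and 15 with all libraries. A gene added there may have been let in by its vehicle counts alone, so no conclusion is drawn from the call of Abcg1. The median log2 difference in liver was 0.18 for the 10 members, −0.09 for other apolipoproteins, −0.14 for assembly, 0.15 for lipases, 0.21 for receptors, −0.25 for efflux and 0.13 for transcription factors, against 0.02 over all genes tested.

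With ABT-737, 3 genes of these lists passed against vehicle in liver, where 3.85% of all genes did. Pla2g7 had 0, 2 and 2 counts (adjusted p = 0.0321), but its vehicle counts alone let it be tested, so no conclusion is drawn from its call. Npc2 fell to 95.2 ± 5.53 CPM (log2 −0.85, adjusted p = 0.0364). Ppara, the fatty acid receptor that governs hepatic lipid oxidation, rose from 162 ± 8.79 to 285.5 ± 44.3 CPM (log2 0.82, adjusted p = 0.0493). Without vehicle replicate 3, where 8.78% of all genes passed, these 3 passed again, Apoc4 and Cebpa were also higher with ABT-737, and Clu, Tm6sf2, Abcg1 and Srebf2 lower. That fit tested more efflux genes and transcription factors than the fit with all libraries. Vehicle counts alone may have let Abcg1 and Srebf2 in, so no conclusion is drawn from their calls. In kidney 2 genes passed, against 1.35% of all genes, and both rose. Lpl, the lipase activated by ApoC-II, went from 169.8 ± 44.0 to 337 ± 93.2 CPM (log2 0.98, adjusted p = 0.0468), and Lrp2, the megalin receptor with which proximal tubules take up filtered apolipoproteins, from 264 ± 43.1 to 443 ± 81.8 CPM (log2 0.74, adjusted p = 0.0439). Of 9 proximal tubule markers 8 had a higher value in the same comparison (1 passed, median log2 0.31), and between vehicle and young kidneys 7 had a lower one (2 passed, median −0.28). Their part in the Lrp2 differences was not tested.

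Those kidney genes had fallen with age. Between vehicle and young kidneys Lpl fell from 431 to 169.8 CPM (log2 −1.34, adjusted p = 0.000786) and Lrp2 from 474 to 264 CPM (log2 −0.84, adjusted p = 0.0028). The vehicle libraries enter both comparisons. In the opposite direction Lrp1, a receptor for ApoE-bearing remnants, rose from 67.3 ± 7.26 to 130.4 ± 20.1 CPM (log2 0.95, adjusted p = 0.000722), and the lipase inhibitor Angptl4 rose (log2 1.69, adjusted p = 0.00707). By list, against 13.3% of all genes, 2 rose and 1 fell of 13 assembly genes in kidney, 3 and 1 of 7 lipases, 2 and 2 of 13 receptors, 1 and 0 of 5 efflux genes, 0 and 1 of 14 transcription factors and 1 and 0 of 2 other apolipoproteins.

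Lung and skin shared a rise of Apod, an apolipoprotein of the lipocalin family. In lung it rose from 7.65 ± 3.84 to 27.3 ± 5.04 CPM (log2 1.80, adjusted p = 0.0159) and in skin from 128 ± 35.1 to 535 ± 194 CPM (log2 2.06, adjusted p = 0.0137). The phospholipase Pla2g7 also rose in both (log2 3.45, adjusted p = 0.00316 in lung and log2 2.52, adjusted p = 0.0182 in skin). The macrophage scavenger receptor Msr1 rose in lung (log2 3.35, adjusted p = 0.00684). In skin Msr1 had 12, 13 and 82 counts in vehicle against 0, 0 and 1 in young mice (adjusted p = 0.0368). Counts of old skins alone let it be tested there, so no conclusion is drawn from that call. By list in lung, against 12.9% of all genes, 1 of 2 other apolipoproteins rose, 3 of 11 lipases rose and 1 fell, 1 of 11 receptors rose, and none of 11 assembly genes, 6 efflux genes and 11 transcription factors passed. In skin, against 11.2% of all genes, 1 of 2 other apolipoproteins, 2 of 8 assembly genes, 2 of 9 lipases, 2 of 10 receptors and 1 of 6 efflux genes rose, and 2 of 10 transcription factors, Ppara and Mlxipl, fell. Without young replicate 1 of skin 0.26% of all genes passed and no gene of these 6 lists did (Apod log2 1.85, adjusted p = 0.065), while without young replicate 1 of lung Apod, Pla2g7 and Msr1 passed again. Without ABT-737 replicate 4 of lung, 2 assembly genes passed, Apobec1 as higher and Dgat2 as lower in vehicle lungs, against 16.1% of all genes.

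Macrophage transcripts were high in the kidneys and lungs with the most Apoe. In these bulk tissues more cells of a type and more RNA per cell cannot be told apart. Of 16 macrophage markers, all 10 that could be tested in kidney rose between vehicle and young mice, as did all 11 in liver, all 11 in skin and 9 of 13 in lung. Over all genes 13.3% passed in kidney, 22.6% in liver, 11.2% in skin and 12.9% in lung. With ABT-737 against vehicle, 6 of 10 fell in kidney and 10 of 11 in liver, against 1.35% and 3.85% of all genes. None passed of the 13 in lung or the 11 in skin, where no gene of any kind did. There 12 of the 13 and 11 of the 11 had a lower value (median log2 −0.79 and −1.48). In kidney their sum, led by C1qb, was 269, 274.5, 253.5 and 339 CPM in young, 1136, 1587 and 909 CPM in vehicle and 388, 414 and 649 CPM in ABT-737 mice. Vehicle replicate 4 was highest both in this sum and in Apoe. The other vehicle kidneys ranked oppositely: replicate 3 had a sum of 1136 CPM and Apoe of 749.6 CPM, replicate 5 had 909 and 1281 CPM. With ABT-737, replicate 3 had the lowest sum, 388 CPM, but the highest Apoe, 721 CPM. In lung, also led by C1qb, the sum was 1374, 1665, 1350 and 1510 CPM in young, 4269, 4398 and 9607 CPM in vehicle and 1704, 4573 and 4374 CPM in ABT-737 mice. Vehicle replicate 5 was the highest in the sum and in Apoe, whereas Apoc2 was highest in vehicle replicate 4. Vehicle replicate 3 and ABT-737 replicate 5 had sums above every young lung, but their Apoe, 1692 and 1684 CPM, lay within the young range.

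Hepatocyte markers moved in kidney too. Of 8 tested, 4 rose between vehicle and young kidneys (the fibrinogen chains Fga, Fgb and Fgg, and transferrin, Trf) and the transthyretin gene Ttr fell, with a median log2 difference of 0.90 against 0.01 over all genes. Alb, at 3.86 to 8.78 CPM in young and 5.50, 25.3 and 4.70 CPM in vehicle kidneys, did not pass (adjusted p = 0.419). The summed markers, led by Cyp2e1, were 1813 to 2373 CPM in young, 1416 to 1568 CPM in vehicle and 1660 to 2633 CPM in ABT-737 kidneys. Their part in the level of kidney Apoe was not tested.

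In liver the same macrophage sum, led by C1qa, was 569, 690, 711 and 740.5 CPM in young, 2352, 2797 and 3034 CPM in vehicle and 531, 421 and 792 CPM in ABT-737 mice, whereas liver Apoe differed by log2 0.27 between ABT-737 and vehicle (95% interval −0.37 to 0.92). In skin the sum, led by Lyz2, was 237, 373.5 and 768 CPM in young, 1722, 3203 and 4211 CPM in vehicle and 1132, 641 and 1419 CPM in ABT-737 mice. T cell markers rose between vehicle and young mice in 5 of 5 tested in kidney, 7 of 7 in lung and 5 of 5 in skin, and could not be tested in liver. Without young replicate 1 of skin, 1 of 11 macrophage markers and 0 of 6 T cell markers passed there. Blood markers moved with age as well: 6 of 6 rose in old vehicle kidneys, 5 of 6 in livers, 3 of 6 in lungs and 5 of 5 in skins. They did not pass without young replicate 1 in lung or skin, whereas between ABT-737 and young lungs all 6 passed with all libraries and 0 without young replicate 1. The part of these cells in the levels of Apoe, Apoc1 and Apoc2 was not tested.

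**Figure D5:**
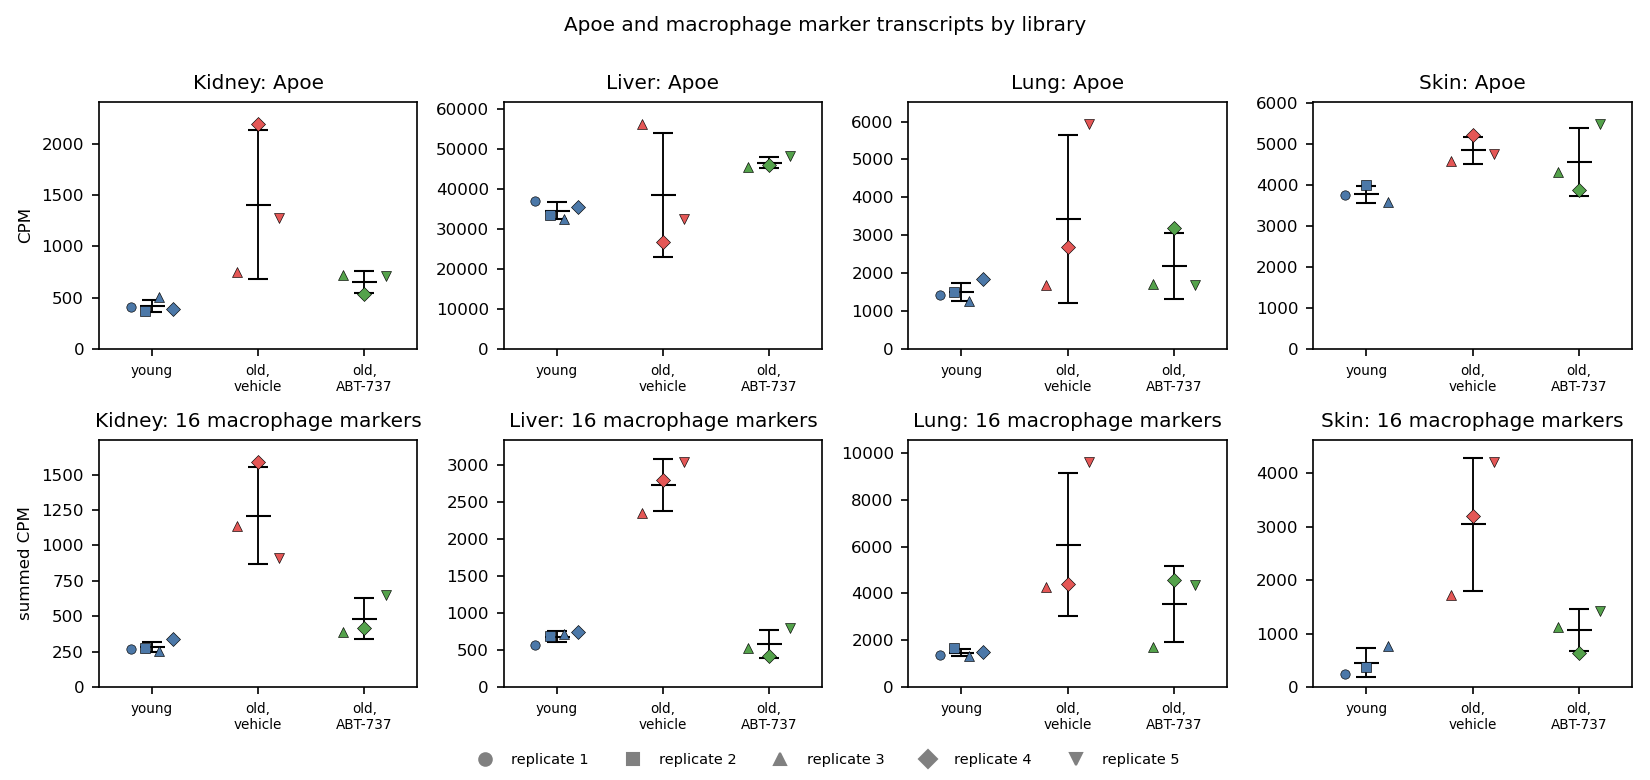
CPM of Apoe (top) and summed CPM of 16 macrophage markers (bottom) in each library of the 4 tissues by group; each marker is 1 library, its shape the replicate number, and bars are the mean ± SD, their lower ends cut at 0. In kidney and lung the library highest in Apoe is also highest in the macrophage markers, while in liver the markers are high in vehicle mice only. In skin the library highest in Apoe, ABT-737 replicate 5, lies below the vehicle libraries in the markers.

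Acute-phase and circadian transcripts also moved with the liver groups. All 10 acute-phase genes, led by haptoglobin (Hp), rose between vehicle and young livers, against 22.6% of all genes passing. Between ABT-737 and vehicle 8 of the 10 fell, against 3.85% of all genes. Their sum was 5820 to 9108 CPM in young, 21240, 42050 and 83430 CPM in vehicle and 15730, 9323 and 10140 CPM in ABT-737 livers. Of 13 hepatocyte markers only Hpx, itself a plasma protein of the acute phase, passed between vehicle and young livers, and without vehicle replicate 3 there were 6 (4 higher, 2 lower). Between ABT-737 and young livers 2 of the 10 acute-phase genes passed, both higher, against 8.4% of all genes, and 9 of 10 had a higher value. Without vehicle replicate 3, 4 of the 10 acute-phase genes passed, against 16% of all genes. The part of the acute-phase response in the apolipoprotein differences was not tested.

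The clock output gene Dbp, which cycles over the day, separated young from old mice in every tissue. In liver it measured 213, 302.5, 292 and 326 CPM in young, 8.73, 5.85 and 11.6 CPM in vehicle and 3.96, 9.48 and 9.90 CPM in ABT-737 mice. Dbp differed between vehicle and young by log2 −3.93 in kidney, −5.01 in lung and −4.42 in skin. In liver the values of old mice lay near or below the floor of 3 counts. Its young libraries alone let it be tested there, so no fold is given and no conclusion is drawn from its liver call. Of the 12 clock genes, all were tested in kidney, where 3 rose and 6 fell. Lung had 12 tested with 2 that rose and 5 that fell, skin 11 with 2 and 6, and the shallower liver 5 with 1 and 2. The shares of all genes passing were 13.3% in kidney, 12.9% in lung, 11.2% in skin and 22.6% in liver. Without young replicate 1 of skin, 3 clock genes fell there and none rose. Time of day at tissue collection is not given in the sources used here, and its part in the differences of Apob, Apoa4 and Apom between young and old livers was not tested.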

How the data were processed

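Kidney, liver, lung and skin RNA of Prf1-/- mice was sequenced as bulk MARS-seq 3′ libraries from 50 ng of RNA. The deposited values are raw counts per gene and library, which the authors made with bcl2fastq, HISAT 0.1.5 and HOMER on mm10, per the submitters' processing notes. For some ABT-737 samples the treatment label carries another last digit, and their titles gave the group. Collapsing of molecular identifiers and use of strand are not given in the sources used here. Kidney, liver and lung share 1 table with 1 RefSeq transcript per gene. Skin has another, of Ensembl transcripts, in which 82.5% of windows extend 2000 bases at the 3′ end, and skin levels were not set against the other tissues.

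Counts were tested per tissue over its 3 groups with edgeR 4.0.16 (TMM scaling, filterByExpr, quasi-likelihood test, R 4.3.3), with Benjamini-Hochberg adjustment over all genes tested (11123, 5583, 11949 and 14224 in kidney, liver, lung and skin) and a threshold of 0.05. Tissues were compared in 1 fit over 30 libraries. CPM use TMM-scaled library sizes within a tissue. SE is the log2 fold change divided by the root of F. Alternatives were DESeq2 1.42.0, its size factors, total counts, no filter, a minimum of 10 counts, only the 2 groups compared, a replicate block, and leaving out each library. The list counts without the 4 libraries that stood apart, and the correlations without 1 of them, were added after seeing the data. Floors cover counting error only. No 2 libraries differed by as little as sampling noise. The labels do not say which libraries come from the same mouse, and p-values measure the spread between libraries.

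Deviations of same-numbered vehicle and ABT-737 lungs from their group means had correlations of 0.176, 0.296 and 0.427. Differently numbered libraries were not compared, so these values cannot establish pairs, and the labels give none. A replicate block by number was fitted as an alternative only. The block changed no member call.

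The members and the lists of lipoprotein assembly, lipases, receptors, sterol efflux, transcription factors, other apolipoproteins, macrophage, T cell, hepatocyte, adipocyte, tubule, alveolar, keratinocyte and blood markers, acute-phase and clock genes were chosen with earlier results of these data known. Named list genes were those passing with the largest differences, at most 3 per list and direction, with some left out for brevity. Mttp, Hnf4a, Mlxipl and the list genes named from fits that left out a library were chosen after their values were seen. Scripts were tested on simulated data.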

Additional observations from a re-analysis of the deposited data

Results flagged for a closer look

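In the young groups of 4 libraries, the highest library was far from the others in 5 cases. In lung this was replicate 1 each time, with 144 CPM of Apoa1, 86.8 CPM of Apoa2, 4.41 CPM of Apoa4 and 9.32 CPM of Apoa5. In liver it was replicate 1 with 15800 CPM of Apoa2 (the other 3 at 12050 to 12540 CPM). Chance gives such a gap in about 1 of 20 groups. The 4 lung cases share 1 library, so they are not independent of each other and cannot be set against that rate as separate cases.

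The effect of age differed between tissues, by the interaction test, for Apoa4 (2.68 on the log2 scale) and Apob (−2.26) between liver and kidney. The test also passed for Apoa1 (5.31), Apoa2 (3.09), Apoa4 (5.84) and Apoc3 (3.58) between liver and lung, where 0 members passed without young lung replicate 1. Apoa4 and Apoc3 were too low to test in lung alone, so no difference is read from their values there.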

How the results depend on the processing

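With other settings the number of members passing changed by over 1.5 times as follows, and the cause was not tested. DESeq2 called 1 between ABT-737 and vehicle in kidney (Apoe) and in lung (Apoc2), 2 between vehicle and young in lung, and, for differences between tissues, 4 for age in liver against kidney, 1 for age in lung against kidney and 1 for ABT-737 in liver against lung. By smaller steps it called 4 for age (Apoa1 being the addition) and 3 for ABT-737 against young in liver, and 5 for age in liver against lung. Without the filter on low counts 1 member passed for ABT-737 against vehicle in kidney and lung, 2 and 3 for age in kidney and lung, 0 for age in skin, 1 for ABT-737 against young in kidney and lung, and 1 for ABT-737 in liver against lung. With at least 10 counts in every library fewer members were tested: 1 passed for ABT-737 against young in liver, 0 for age in lung and in liver against kidney, 1 for age in liver against lung, and 2 in each contrast of young tissues. With only the 2 groups compared, 2 passed for age in kidney, 3 for age in lung, 1 for ABT-737 against young in kidney and 9 in liver.

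Leaving out 1 library at a time gave, for ABT-737 against vehicle, 0 to 2 members in kidney and liver and 0 to 1 in lung. For age it gave 1 to 3 in kidney, 2 to 3 in liver, 0 to 3 in lung and 0 to 1 in skin, and for ABT-737 against young 0 to 1 in kidney and 2 to 6 in liver. It gave 0 to 5 for age in liver against lung, 0 to 1 for age in lung against kidney and for ABT-737 in liver against lung, and 7 to 10 for young lung against kidney. For age in lung 0 passed without young replicate 1 or 4 or vehicle replicate 4 or 5. Leaving out vehicle replicate 3 or ABT-737 replicate 4 gave 2 there, and ABT-737 replicate 5 gave 3. For age in kidney 3 passed when vehicle replicate 3 or ABT-737 replicate 5 was dropped, and 2 when ABT-737 replicate 3 or 4 was. The highest numbers for ABT-737 came without vehicle replicate 3 in kidney and liver and without ABT-737 replicate 4 in lung.

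Signs turned only in values that had not passed, with the 1 exception of young lung against kidney below. For ABT-737 against vehicle in liver, Apob became 0.04 with DESeq2, 0.006 with its size factors, 0.055 without the filter and 0.158 with the replicate block, and Apom −0.022 with total counts, −0.093 with at least 10 counts and −0.002 with only the 2 groups. For age in liver, Apoc1 became −0.044 without the filter and −0.068 with at least 10 counts. Leaving out 1 library gave values on both sides of 0 in 23 results. For ABT-737 against vehicle, in kidney Apoa2 −0.296 to 0.272, Apoa4 −0.199 to 0.378 and Apoc3 −0.446 to 0.007, and in liver Apoa5 −0.045 to 0.432, Apob −0.365 to 0.439 and Apom −0.27 to 0.318, and in lung Apoa1 −0.787 to 1.324, Apoa2 −0.806 to 1.713, Apoc1 −0.579 to 1.401 and Apoe −1.027 to 0.002, and in skin Apoa1 −1.693 to 0.155 and Apoe −0.238 to 0.019. For age, in kidney Apob −0.084 to 0.353, and in liver Apoa2 −0.418 to 0.544, Apoa5 −0.181 to 0.291, Apoc1 −0.303 to 0.281 and Apoe −0.218 to 0.361, and in skin Apoa1 −2.306 to 0.719 and Apoa2 −2.007 to 0.321. For ABT-737 against young, in lung Apoc1 −1.205 to 0.772 and Apoc2 −0.593 to 0.244, and in skin Apoa1 −3.235 to 0.116. For young lung against kidney, Apoa5 −1.06 to 4.846. Deviations of same-numbered old libraries had correlations of −0.211 to 0.021 in kidney, −0.035 to 0.161 in liver and −0.575 to 0.273 in skin. These values cannot show whether such libraries share more than a number. The replicate block left 0 members passing for ABT-737 against vehicle in all 4 tissues. Depth limits liver most: vehicle replicate 3 holds 6 counts of Apob.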
